A study of Homo sapiens with 20 samples.

Results

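The AP-1 genes described here were the 10 rows of the gene table named FOSL1, FOS, FOSB, FOSL2, JUN, JUNB, JUND, ATF3, BATF3 and JDP2, out of 58870 genes. With them went the 30 consensus peaks, out of 54563, that overlapped one of these genes or the 10 kb to either side of it. The members were chosen by name and not by a measured value, though with earlier results of these data known. A375 and 1205Lu are established human melanoma cell lines. For RNA-seq, each line was transfected with the non-targeting control si-NT or with si-FOSL1, which targets the mRNA of FRA1, with 3 samples in each of the 4 groups and no other treatment named. For Cut&Run, which releases DNA beside a bound antibody, each line gave 3 samples with an antibody against FRA1 and 1 sample with IgG. The silencing is transient and each line stands for 1 tumour, so a difference between the lines is a difference between these 2 cultures of cells.

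AP-1 is a dimer of basic leucine zipper proteins. FOS-family proteins (FOS, FOSB, FRA1 from FOSL1, FRA2 from FOSL2) cannot pair with each other and bind DNA with a JUN-family partner (JUN, JUNB, JUND), whereas JUN proteins can also pair among themselves. The dimers bind the sequence TGACTCA, called the TRE, and pairs that include ATF proteins bind TGACGTCA, called the CRE. ATF3, BATF3 and JDP2 are related zipper proteins that pair with JUN proteins, and ATF3 and JDP2 often repress. FOS, FOSB, JUN, JUNB and ATF3 are immediate early genes, transcribed within minutes of growth factor or stress signals, and MAP kinase signaling, which is high in many melanomas, stabilizes FRA1.

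The RNA-seq samples held 21621563 to 32518903 counts in A375 and 20573412 to 30788243 in 1205Lu. The labels number the samples but do not say whether they came from separate cultures, so p-values measure the spread between these samples, which may be technical. Both lines lacked melanocyte pigment genes, with PMEL, MLANA, TYR, DCT and TYRP1 no higher than 1.08 CPM (counts per 1000000 of the library) in the si-NT samples. SOX10, a lineage factor, averaged 43.9 CPM in A375 and 912 CPM in 1205Lu, and MITF averaged 52.1 and 3.54 CPM. S100B, a calcium-binding protein of melanocytes and glia, averaged 0.991 CPM in control A375 and 426 CPM in control 1205Lu cells. Of 8 markers of immune, epithelial, endothelial and fibroblast cells, none passed 1.92 CPM in any sample (LUM in A375 with si-FOSL1).

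The stretches of genome below carry the TRE or CRE letters inside Cut&Run peaks near the members, and are shown because the results on FRA1 binding return to these genes. Each is the plus strand of GRCh38, and the capitals mark the motif. The first 3 lie in FOSL1 and FOSL2, the next 2 at the FOSB and JUND starts, and the last 5 in and before ATF3.
FOSL1 intron peak, TRE near its centre, chr11:65899359-65899418: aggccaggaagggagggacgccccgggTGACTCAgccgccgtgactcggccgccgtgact
FOSL2 start, TRE, chr2:28392835-28392894: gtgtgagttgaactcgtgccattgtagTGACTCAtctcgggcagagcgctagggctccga
FOSL2 intron, TRE, chr2:28408952-28409011: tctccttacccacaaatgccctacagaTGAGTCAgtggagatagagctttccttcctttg
FOSB start, CRE, chr19:45467644-45467704: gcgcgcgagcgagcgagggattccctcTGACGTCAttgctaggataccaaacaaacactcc
JUND start, CRE, chr19:18281788-18281848: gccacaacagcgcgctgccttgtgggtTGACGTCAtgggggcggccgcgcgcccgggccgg
ATF3 upstream, CRE, chr1:212559037-212559097: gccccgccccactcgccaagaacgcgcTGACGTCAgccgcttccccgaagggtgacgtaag
ATF3 upstream, TRE, chr1:212561559-212561618: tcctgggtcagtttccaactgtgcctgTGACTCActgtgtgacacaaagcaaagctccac
ATF3 intron, TRE, chr1:212567224-212567283: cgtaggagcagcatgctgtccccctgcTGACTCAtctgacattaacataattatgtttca
ATF3 intron, TRE, chr1:212596486-212596545: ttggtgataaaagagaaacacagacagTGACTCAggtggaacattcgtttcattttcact
ATF3 intron, TRE, chr1:212601070-212601129: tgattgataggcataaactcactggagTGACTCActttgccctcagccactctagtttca

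With si-FOSL1, JUNB and JUND rose and JUN fell in both lines, while FOS and FOSB rose in 1205Lu and FOSL2 fell in A375. In A375, 7 of the 10 members passed the test (adjusted p under 0.05, edgeR quasi-likelihood test with Benjamini-Hochberg adjustment over all genes). Of these, 3 rose and 4 fell, FOSL1 included. Among all 16899 genes tested in A375, 50.8% passed, 25.7% upward and 25.1% downward. In 1205Lu, 7 of 10 passed, with 5 up and 2 down, against 40.5% of 17136 genes, 20.6% up and 19.9% down. With an absolute log2 fold change over 1 as well, 2 members passed in A375 (FOSL1 and BATF3; 5.56% of all genes) and 3 in 1205Lu (FOSL1, JUNB and ATF3; 3.13% of all genes). The groups did not overlap for 8 members in A375 (56.8% of all genes) and for 8 in 1205Lu (49.3%). All 10 members passed the filter on low counts in each fit. The median log2 fold change of the 10 was 0.080 in A375 and 0.33 in 1205Lu, where the medians of all genes were -0.0026 and -0.0048. Without FOSL1, the target of the silencing, the members' medians were 0.14 and 0.66.

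**Figure D1:**
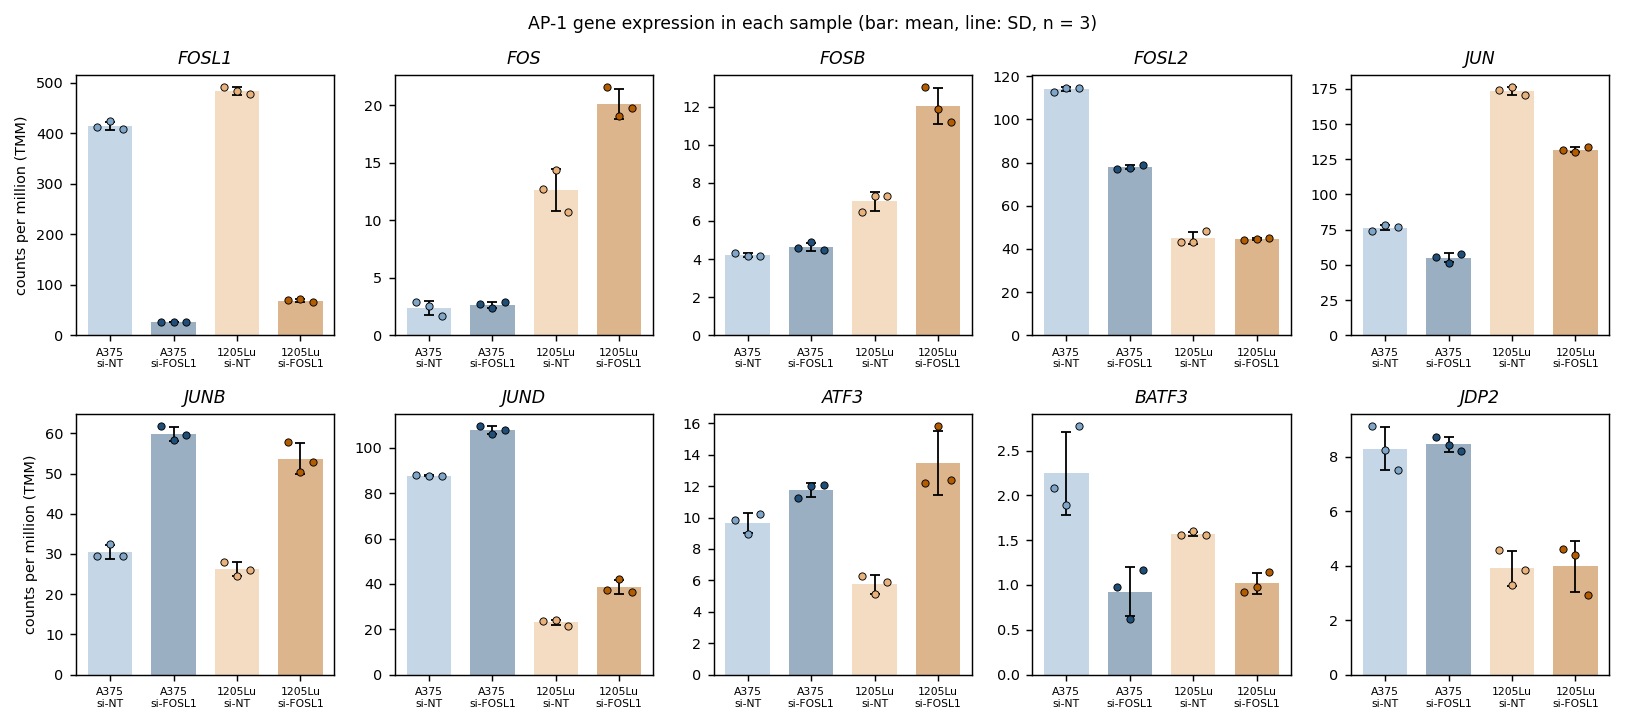
Expression of each member in CPM (scaled by TMM, linear axis from 0), with 1 point per sample, bars for the mean and lines for the SD of 3 samples. FOSL1 drops in both lines, JUNB about doubles in both, and FOSL2 falls in A375 but stays near 45 CPM in 1205Lu.

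FOSL1, which encodes FRA1, was the target of the silencing. In A375 it stood at 412, 423 and 407 CPM in the si-NT samples and at 25.6, 25.6 and 26 CPM in the silenced samples. The 1205Lu samples went from 491, 483 and 477 CPM to 69.2, 70.8 and 65.0 CPM. Every si-FOSL1 sample lay far below every si-NT sample of its line. In bulk RNA, fewer cells with a transcript and less of it per cell cannot be told apart. The log2 fold change was -4.01 (SE 0.030, adjusted p = 6.0e-30) in A375, which left 6.19% of the control level, and -2.84 (SE 0.029, adjusted p = 1.0e-22) in 1205Lu, which left 14.0%. The responses differed by 1.19 on the log2 scale (adjusted p = 1.2e-16, interaction over all 12 samples). With si-NT, 1205Lu had 1.17 times the A375 level (log2 0.22, adjusted p = 1.3e-08).

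FOS is the founding member and a short-lived protein with a strong activation domain. It was low in A375, at 2.89, 2.53 and 1.70 CPM in the controls, and its silenced samples read 2.72, 2.33 and 2.87 CPM. These 2 groups overlapped, and the log2 fold change of 0.16 (95% interval -0.29 to 0.60, adjusted p = 0.604) missed the threshold. In 1205Lu, FOS measured 12.7, 14.3 and 10.7 CPM in control and 21.6, 19.0 and 19.8 CPM in silenced samples. Every silenced 1205Lu sample was above every control, by 0.66 on the log2 scale (SE 0.099, adjusted p = 1.6e-05). The difference between the lines was 0.51 (adjusted p = 0.0908) and missed the threshold, but passed it without 1205Lu si-NT replicate 2 (adjusted p = 0.0469) and without A375 si-NT replicate 3 (adjusted p = 0.0164). FOS was the member most unlike between the lines with si-NT, 5.32 times higher in 1205Lu (log2 2.41, adjusted p = 3.9e-13).

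FOSB, which also encodes the truncated form DeltaFosB, behaved much like FOS in value. The A375 samples read 4.34, 4.15 and 4.14 CPM with si-NT against 4.56, 4.88 and 4.49 CPM with si-FOSL1. Though these did not overlap, the log2 fold change of 0.14 (95% interval -0.16 to 0.43, adjusted p = 0.483) missed the threshold. In 1205Lu the levels were 6.47, 7.28 and 7.30 CPM and then 13.0, 11.9 and 11.2 CPM. FOSB therefore rose by 0.76 (SE 0.12, adjusted p = 2.4e-05) in 1205Lu, and the response was larger there than in A375 by 0.64 (adjusted p = 0.0071). With si-NT, the gene was 1.67 times higher in 1205Lu (adjusted p = 1.6e-05).

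FOSL2 encodes FRA2, the closest relative of FRA1, which like it lacks the strong activation domain of FOS. In A375, FOSL2 fell from 113, 115 and 115 CPM to 77.0, 77.6 and 78.8 CPM, a log2 fold change of -0.56 (SE 0.033, adjusted p = 7.9e-13). In 1205Lu the controls read 43.2, 43.3 and 48.1 CPM and the silenced samples 44.1, 44.6 and 45.1 CPM. These overlapped, with a log2 fold change of -0.03 (95% interval -0.13 to 0.075, adjusted p = 0.733). The difference of response was 0.54 (adjusted p = 4.6e-08). Control A375 cells held 2.54 times as much FOSL2 as control 1205Lu cells (log2 -1.34 as 1205Lu over A375, adjusted p = 2.9e-20). FOSL2 overlaps the antisense gene FOSL2-AS1, and also a long non-coding RNA gene on its own strand, which strand cannot separate from it. The libraries were made strand-specific, and whether the counting used strand is not given in the sources used here.

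JUN, the main partner of FOS proteins and a target of JNK, was lower after silencing in both lines. It went from 74.4, 78.1 and 76.8 CPM to 55.9, 51.5 and 57.6 CPM in A375, a log2 fold change of -0.48 (SE 0.045, adjusted p = 3.5e-09). In 1205Lu it went from 174, 176 and 171 CPM to 131, 130.5 and 134 CPM, a log2 fold change of -0.41 (SE 0.028, adjusted p = 2.4e-10). No si-FOSL1 sample reached the lowest si-NT sample of its line. The difference of response was 0.078 (95% interval -0.023 to 0.18, adjusted p = 0.279). With si-NT, JUN was 2.27 times higher in 1205Lu (adjusted p = 2.8e-20).

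JUNB, a JUN protein with weaker activation that can oppose JUN, rose alike in value in both lines. A375 had 29.6, 32.4 and 29.5 CPM in control and 61.8, 58.3 and 59.7 CPM in silenced samples. 1205Lu had 28.0, 24.7 and 26 CPM and then 57.9, 50.5 and 52.9 CPM. Levels were thus 1.96 times the control in A375 (log2 0.97, SE 0.052, adjusted p = 1.1e-13) and 2.02 times in 1205Lu (log2 1.01, SE 0.063, adjusted p = 6.5e-11). The difference of response was 0.056 (95% interval -0.11 to 0.22, adjusted p = 0.668). Across the 12 RNA-seq samples, JUNB had a Pearson correlation of -0.971 with FOSL1 in log2 CPM. This describes 12 libraries in groups that differ by silencing and line, with FOSL1 the target of the silencing. JUNB overlaps HOOK2 on the opposite strand and FOSB overlaps ERCC1, a limit on both values where strand was not used.

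JUND is broadly expressed and less dependent on growth signals. In A375 it rose a little, from 88.1, 87.5 and 87.5 CPM to 109, 106 and 108 CPM (log2 0.29, SE 0.033, adjusted p = 5.5e-08). In 1205Lu it rose from 23.5, 23.8 and 21.6 CPM to 37.3, 42.2 and 36.5 CPM (log2 0.73, SE 0.066, adjusted p = 1.6e-08). Neither line showed overlap between its groups, and the response was larger in 1205Lu by 0.45 (adjusted p = 1.1e-05). With si-NT the order of the lines was the reverse of that for JUN, with 3.81 times as much JUND in A375 (log2 -1.93 as 1205Lu over A375, adjusted p = 1.3e-21).

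ATF3, a stress-induced factor, showed its larger change in 1205Lu. It went there from 6.27, 5.11 and 5.87 CPM to 12.2, 15.8 and 12.4 CPM, or 2.31 times the control level (log2 1.21, SE 0.13, adjusted p = 2.7e-07). In A375 it went from 9.85, 8.97 and 10.2 CPM to 11.3, 12 and 12.1 CPM (log2 0.28, SE 0.10, adjusted p = 0.0245). The A375 call was lost with DESeq2 (adjusted p = 0.0532), with all 12 samples in one fit (adjusted p = 0.0526), and without si-NT replicate 2 (adjusted p = 0.111), si-FOSL1 replicate 2 (adjusted p = 0.0599) or si-FOSL1 replicate 3 (adjusted p = 0.0712). The response was larger in 1205Lu by 0.94 (adjusted p = 7.8e-05). Control cells held less ATF3 in 1205Lu than in A375 (log2 -0.74, adjusted p = 8.0e-06).

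BATF3, a partner of JUN known from dendritic cells, was a low gene with 15 to 67 counts per sample. In A375 it fell from 2.08, 1.90 and 2.77 CPM to 0.98, 0.63 and 1.17 CPM, to 41.3% of the control level (log2 -1.28, SE 0.30, adjusted p = 0.0010). In 1205Lu the values were 1.56, 1.6 and 1.56 CPM and then 0.92, 0.98 and 1.15 CPM. Although these did not overlap, the log2 fold change of -0.64 (95% interval -1.23 to -0.061, adjusted p = 0.0946) missed the threshold. JDP2, a repressor that pairs with JUN proteins, read 9.13, 8.26 and 7.53 CPM against 8.75, 8.42 and 8.21 CPM in A375, and 4.58, 3.29 and 3.86 CPM against 4.62, 4.41 and 2.91 CPM in 1205Lu. Its groups overlapped in both lines, with 95% intervals of -0.20 to 0.25 in A375 and -0.38 to 0.39 in 1205Lu on the log2 scale. JDP2 was lower in control 1205Lu than in control A375 cells (log2 -1.07, adjusted p = 1.3e-06), and BATF3 gave -0.51 (adjusted p = 0.0911). JDP2 overlaps its antisense gene JDP2-AS1.

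**Figure D2:**
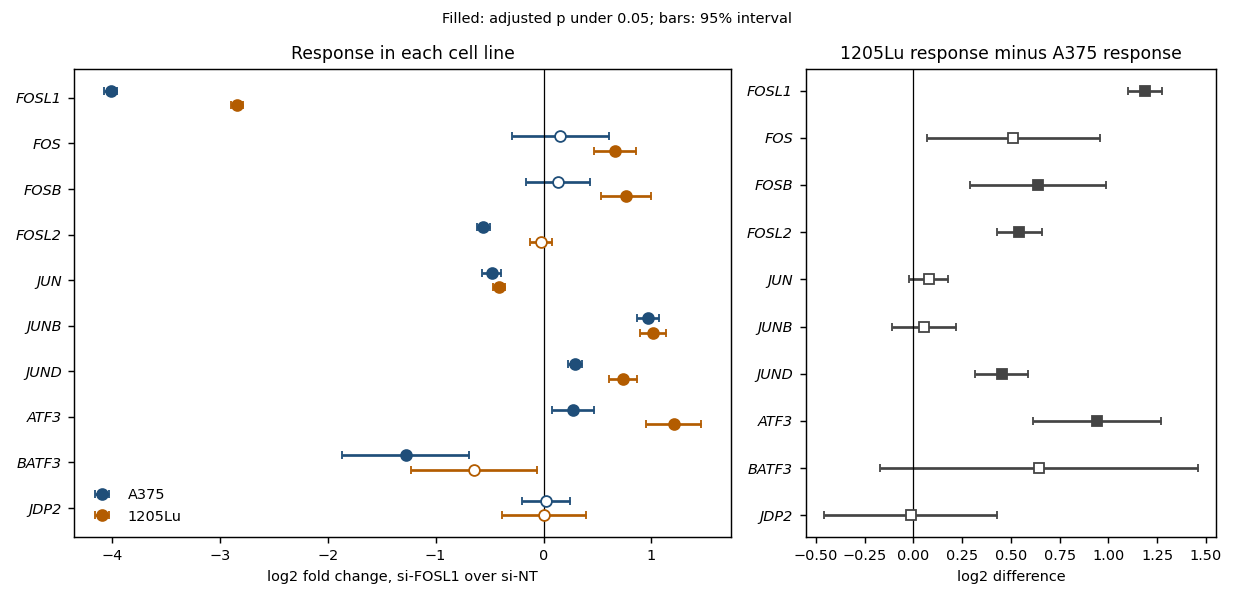
Left, log2 fold change of each member with si-FOSL1 over si-NT in A375 and 1205Lu; right, the 1205Lu response minus the A375 response. Bars are 95% intervals and filled symbols passed an adjusted p of 0.05: JUN and JUNB nearly coincide between the lines, and the 5 filled differences, from JUND at 0.45 to FOSL1 at 1.19, are all positive.

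Between the lines, 5 of 10 members differed in response, all in the direction of a higher value in 1205Lu, against 31.9% of 19452 genes tested, 16.6% higher and 15.3% lower. FOSL1 alone also had an absolute difference over 1, which 5.09% of all genes had. In the control cells, 9 of 10 members differed between the lines, 4 higher and 5 lower in 1205Lu, against 75.9% of all genes, 36.1% higher and 39.8% lower. For 5 of them (FOS, FOSL2, JUN, JUND and JDP2) the log2 difference was over 1, which 40.6% of all genes passed. Both comparisons use the si-NT samples, so a low control level in 1205Lu and a larger response there rest in part on the same libraries.

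To set the members side by side, levels were divided by the merged exon length of each gene. FOSL1 made up 92.6% ± 0.089 (SD, n = 3) of the summed FOS-family level in control A375 cells and 95.7% ± 0.15 in control 1205Lu cells. With si-FOSL1 it still made up 52.1% ± 0.14 and 71.1% ± 1.1. FOSL2 was next in silenced A375 cells, with its share going from 6.72% to 41.5% while its own level fell. In silenced 1205Lu cells FOS (12.4%) and FOSL2 (12.2%) had shares that differed by less than their SDs of 0.80 and 0.54, and FOSB held 4.25%. The FOS-family sum was 236.9 CPM per kb with si-NT and 26.2 with si-FOSL1 in A375 and 267.7 and 50.9 in 1205Lu, or 0.110 and 0.190 of the control. With the length of the MANE Select transcript in place of merged exons, the FOSL1 share in silenced 1205Lu cells was 67.4% and in silenced A375 cells 51.8%. These lengths also ended the tie in silenced 1205Lu cells, with FOS at 16.07% ± 0.98 and FOSL2 at 11.2% ± 0.49 (SD, n = 3).

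The JUN family had a higher sum after silencing and another make-up. Its summed level per length was 83.2 ± 1.2 CPM per kb (SD, n = 3) in control and 103.9 ± 2.5 in silenced A375 cells, 1.25 times as high. In 1205Lu it was 74.1 ± 1.5 and 85.8 ± 1.3, or 1.16 times. JUND was the largest part in A375, at 54.6% ± 0.95 with si-NT and 53.9% ± 0.50 with si-FOSL1, whereas JUN was the largest in 1205Lu, at 64.6% ± 0.91 and 42.4% ± 1.0. JUNB went from 20.03% to 31.5% in A375 and from 19.3% to 34.2% in 1205Lu. The FOS-family sum per JUN-family sum was 2.85 ± 0.025 in control and 0.252 ± 0.0061 in silenced A375 cells, and 3.61 ± 0.027 and 0.593 ± 0.015 in 1205Lu (SD, n = 3). These are mRNA levels, and the amounts of protein were not measured here.

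**Figure D3:**
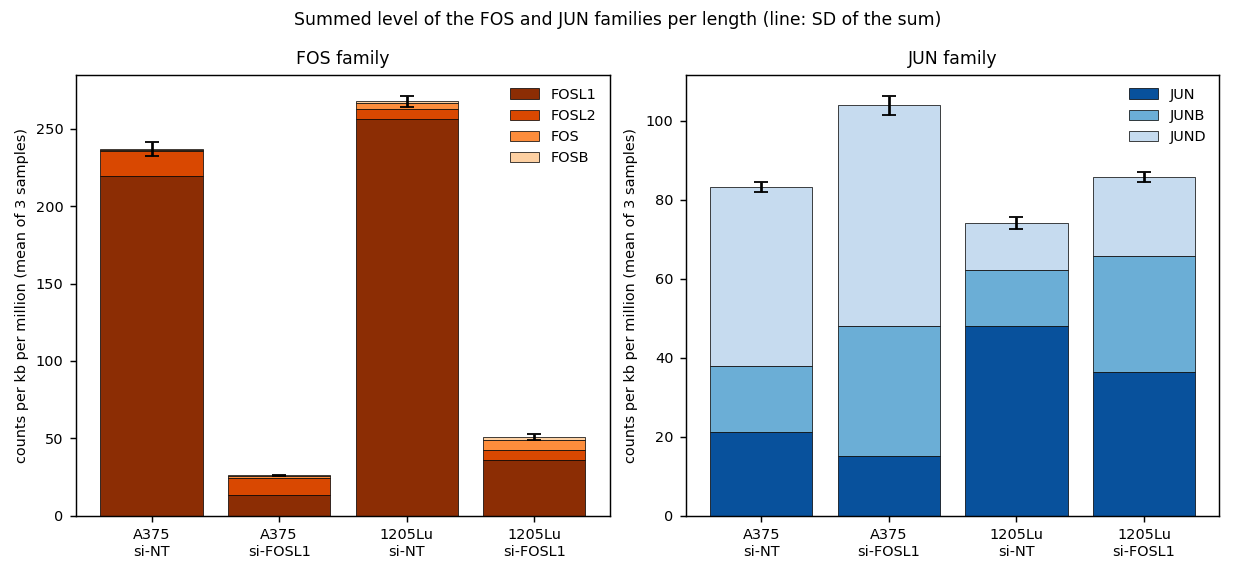
Summed mRNA level of the FOS family (left) and JUN family (right) in CPM per kb of merged exon, stacked by gene as means of 3 samples, with the SD of the sum. The FOS-family bar shrinks to 26.2 in A375 and 50.9 in 1205Lu with si-FOSL1, and the JUN-family bar grows through its JUNB and JUND parts while the JUN part shrinks.

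Of the 30 Cut&Run peaks near the members, 22 passed the IgG limit in A375. This limit asked each FRA1 sample for at least 10 counts, and for at least 4 times the sum of the IgG count and 1. Over all peaks 57.4% passed it. In 1205Lu 3 peaks passed, where 7.09% of all peaks did, and 5 passed without replicate 1 (12.9% of all). The limit was set on unscaled counts with 1 IgG sample and no test. FRA1 samples held 3354095 to 5316527 counts in peaks in A375 but 583750 to 897407 in 1205Lu, beside 383994 and 314569 for IgG, and the part of this gap in the counts of passing peaks was not tested. When every library was scaled to the same total in peaks, 0 near peaks passed in A375 (1.21% of all peaks) and 1 in 1205Lu (3.67%). This scaling gives IgG the same total in peaks as FRA1. It therefore also takes out any excess of FRA1 that the peaks share, and cannot separate depth from enrichment.

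ATF3, whose gene body of 55444 bp is the longest among the members, had the most peaks, and a longer gene has a wider window. All 7 near it passed the limit in A375, which 57.4% of all peaks did. Of the 7, 5 held a TRE within 100 bp of the centre, as 28.6% of all consensus peaks did. The one with the most counts, 2139 bp wide and in an intron at chr1:212595533-212597671, counted 529, 912 and 752 in A375 FRA1 against 32 in IgG, and 71, 128 and 112 against 11 in 1205Lu. A second intron peak, nearer to the upstream start at chr1:212566740-212567680, counted 140, 222 and 195 against 12, and 23, 22 and 22 against 4. These 2 passed the limit in both lines. Another, upstream at chr1:212561095-212562234, had the highest ratio to IgG of the 7 in A375, with 313, 449 and 400 against 9, but only 19, 25 and 17 against 13 in 1205Lu. The peak at chr1:212558544-212559475 was the only 1 of the 30 with a CRE near its centre, and it held a TRE too.

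At FOSL1 itself, 3 of 5 peaks passed in A375 and 1 in 1205Lu, beside 57.4% and 7.09% of all peaks. The peak that passed in both, chr11:65902643-65903890, lies upstream with its centre 2693 bp before the start, and held neither a TRE nor a CRE. It counted 128, 172 and 160 against 9 in A375 and 47, 90 and 68 against 6 in 1205Lu. The peak over the start and the intron after it, chr11:65897925-65900873, counted 192, 314 and 273 against 31, and 35, 58 and 62 against 19, and holds 2 TREs, 1 of them near its centre as printed above. A further intron peak, chr11:65894839-65896760, passed in A375 alone, with 57, 113 and 86 against 10, and 6, 13 and 14 against 17 in 1205Lu. The last 2 peaks lie over and beyond the downstream end of FOSL1. Their centres are nearer to the starts of FIBP and CCDC85B than to that of FOSL1, and neither passed.

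FOSL2 showed the widest contrast between the lines. Its intron peak at chr2:28408456-28409983, with 2 TREs, counted 468, 676 and 584 in A375 against 27 in IgG, and 15, 7 and 17 in 1205Lu against 19. The peak before the gene, chr2:28386935-28387786, counted 168, 321 and 223 against 14, and 6, 5 and 1 against 10. At the FOSL2 start, chr2:28392198-28393367, the counts were 141, 213 and 168 against 31 in A375 and 71, 78 and 65 against 25 in 1205Lu. Another intron peak, chr2:28406305-28407022, counted 27, 65 and 52 against 6 in A375 and 7, 4 and 3 against 8 in 1205Lu. Its difference between the lines missed the threshold (log2 -0.66 as 1205Lu over A375, adjusted p = 0.168, edgeR on the FRA1 samples). So the 1205Lu samples were under IgG at these distal sites and above it at the start. Counts under IgG in 1205Lu were not particular to FOSL2, as the JUNB start peak had 10, 4 and 8 against 13. Over all consensus peaks, the median count in 1205Lu was 6, 5 and 5 in the FRA1 samples and 5 in IgG.

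The starts of FOS, FOSB, JUN and JUND each carried a peak that passed in A375 alone. FOS (chr14:75278487-75279410) counted 95, 133 and 108 against 9 in A375, and 30, 44 and 37 against 17 in 1205Lu. JUN (chr1:58783669-58784820) counted 134, 183 and 149 against 15, and 46, 61 and 44 against 13. FOSB (chr19:45467452-45468320) counted 110, 175 and 134 against 17 in A375. In 1205Lu it counted 28, 70 and 54 against 8, where replicate 1 alone was under the limit. JUND (chr19:18281153-18282689) counted 188, 261 and 270 against 21, and 27, 54 and 48 against 19. The FOSB and JUND peaks each held a CRE away from the peak centre. JUNB had a weaker start peak in A375, with 38, 53 and 51 counts against 10, which did not pass. Its other 2 peaks passed in A375 and lie nearer to a start of HOOK2. The one upstream of JUNB, chr19:12782541-12784118, counted 67, 108 and 70 against 11 and held 4 TREs, none near its centre, and the one downstream, chr19:12793559-12794103, counted 51, 63 and 49 against 10. BATF3 had no peak within 10 kb and JDP2 had 1, in an intron, with 68, 116 and 92 against 13 in A375. Some peaks near these genes lie closer to the starts of others, among them ERCC1, HOOK2 and IQCN.

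**Figure D4:**
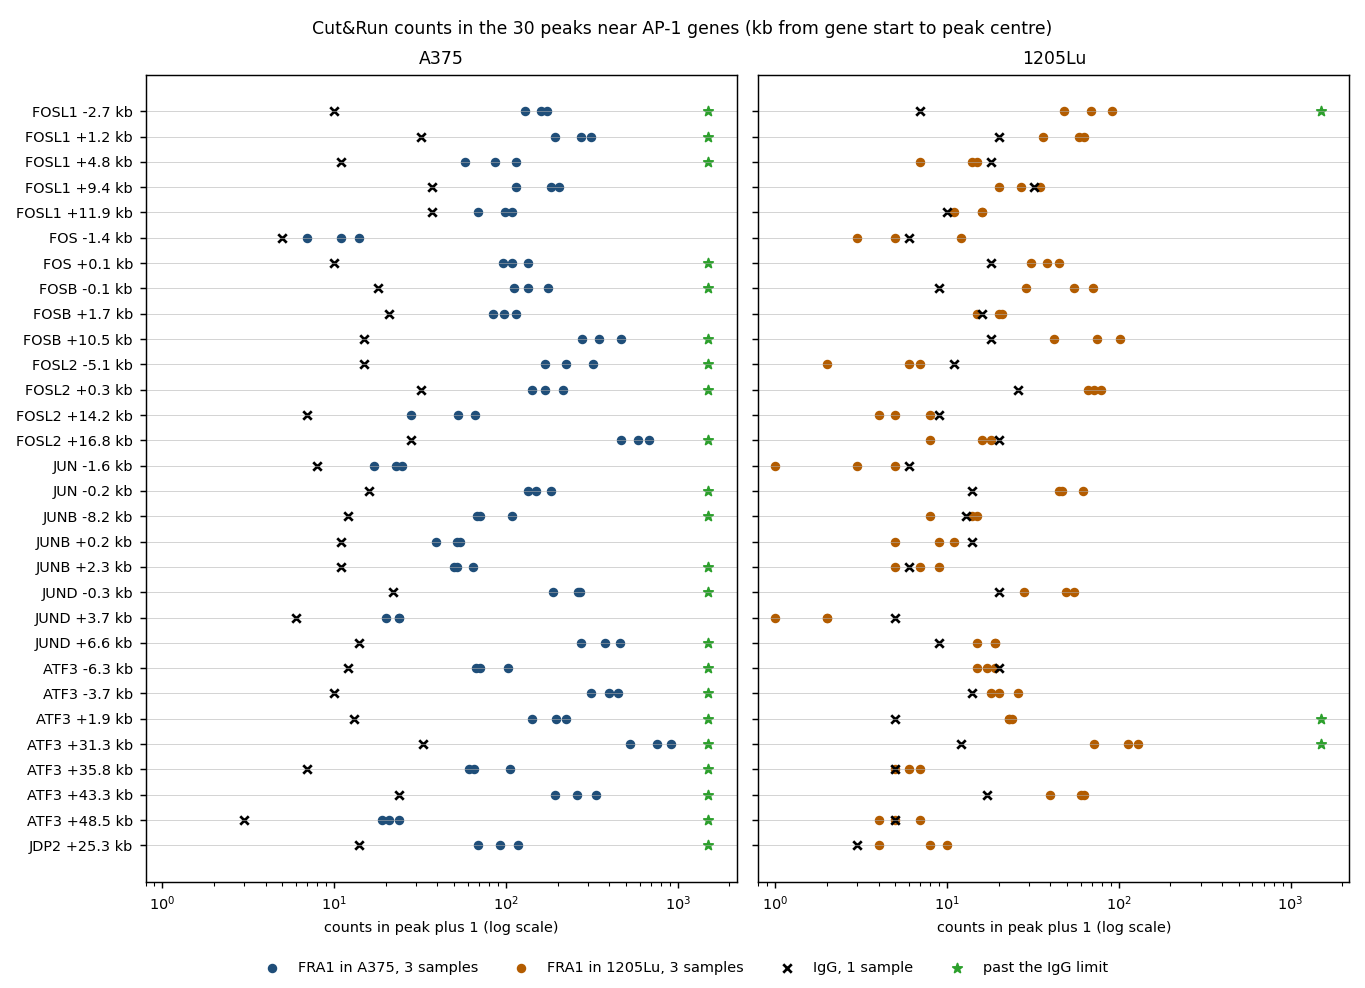
Counts in each of the 30 peaks (rows, named by gene and distance of the peak centre from the gene start in kb) on a log axis, for the 3 FRA1 samples and the 1 IgG sample of A375 (left) and 1205Lu (right), with stars where all 3 passed the IgG limit. In A375 22 rows carry a star, and in 1205Lu 3 do, and the FOSL2 rows at +16.8 and -5.1 kb fall to the IgG level in 1205Lu.

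The FRA1 samples of the lines were also compared with edgeR, where TMM scaling sets each library relative to the others. Of 28 near peaks tested, 12 passed an adjusted p of 0.05, against 62.6% of 45588 peaks, with 6 higher in A375 (34.5% of all) and 6 higher in 1205Lu (28.1%). Without 1205Lu replicate 1, 10 of 30 tested were higher in 1205Lu, as were 14084 of all 52767 peaks tested. Higher in A375 were the FOSL2 peaks before the gene (log2 -3.18 as 1205Lu over A375, adjusted p = 2.1e-10) and in the intron (-2.78, adjusted p = 2.2e-12). The other 4 were the peak beyond JUND (-1.78), the ATF3 peaks 3670 bp before (-1.57) and 35809 bp after its start (-1.24), and the JDP2 peak (-1.17). Higher in 1205Lu were peaks at or near the starts of FOSL1 (1.51), FOSL2 (1.4), FOSB (1.22), FOS (1.08) and JUN (1.06), and the ATF3 peak over its downstream start (0.40, adjusted p = 0.0306). These directions are shares within a library. With no scaling all 28 were higher in A375, as were 85.5% of all peaks. With totals in peaks alone, 8 were higher in A375 and 5 in 1205Lu, where 17943 and 11651 of all 45588 peaks were. Of the 6 higher in 1205Lu, the FOSL1 peak alone passed the IgG limit in that line.

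The TRE stood within 100 bp of the centre in 8 of the 30 peaks, or 26.7% (95% Wilson interval 14.2 to 44.5%), and in 28.6% of all consensus peaks. In windows 2000 bp from the centres of all peaks its share was 3.43%. Over the whole peak, 11 of 30 held it (36.7%) against 57.7% of all peaks. The CRE was near the centre in 1 of 30 and in 0.467% of all peaks, and anywhere in 3 of 30 (FOSB, JUND, ATF3) and 1.33% of all. Both motifs were searched on both strands, TGACTCA also as TGAGTCA, and neither contains the other.

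RefSeq promoter windows (250 bases before to 50 after a start, GRCh38.p14) were matched for 8 members, all but FOSL1 and BATF3. Among their 11 windows, that of FOSL2 alone held a TRE, which starts at base 5 after the start, and that of JUND alone held a CRE, at base -200. Over 35116 promoter windows 4.95% held a TRE and 1.85% a CRE. Both are shown in the direction of the gene, with the motif in capitals. A missing match means only that these letters are not in the window.
FOSL2 promoter, plus strand, chr2:28392608-28392907: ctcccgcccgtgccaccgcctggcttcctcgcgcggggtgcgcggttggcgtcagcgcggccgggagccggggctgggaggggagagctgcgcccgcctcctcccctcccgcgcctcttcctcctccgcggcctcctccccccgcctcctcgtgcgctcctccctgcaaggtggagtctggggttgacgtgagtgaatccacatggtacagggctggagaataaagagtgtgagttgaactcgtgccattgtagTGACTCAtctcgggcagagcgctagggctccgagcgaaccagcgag
JUND promoter, minus strand, chr19:18281573-18281872: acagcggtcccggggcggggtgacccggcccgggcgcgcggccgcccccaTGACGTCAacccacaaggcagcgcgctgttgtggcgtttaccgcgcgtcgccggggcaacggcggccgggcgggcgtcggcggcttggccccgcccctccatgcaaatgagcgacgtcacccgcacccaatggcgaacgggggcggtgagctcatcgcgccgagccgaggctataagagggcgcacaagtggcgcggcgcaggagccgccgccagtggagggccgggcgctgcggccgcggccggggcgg

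The wider group of immediate early genes and their regulators, 21 genes written down without the members, set the lines apart. In A375, 5 of 20 tested rose and 10 fell (25.7% and 25.1% of all genes), with a median log2 fold change of -0.13. In 1205Lu, 15 of 21 rose and 2 fell (20.6% and 19.9% of all genes), with a median of 0.32. In the interaction, 13 of 21 were higher in 1205Lu and 0 lower, where 16.6% and 15.3% of all genes were called. SRF, the factor that drives FOS and EGR1 transcription, fell in both lines, by 1.84 on the log2 scale in A375 and by 0.43 in 1205Lu. CCN1, a secreted matrix protein, fell by 0.94 in A375 and rose by 0.81 in 1205Lu (mean CPM 439 to 230 and 55.7 to 99.3). Of the others named by the same rule, IER3 (0.52 in A375 and 0.49 in 1205Lu) and DUSP1 (0.36 and 0.67) rose in both lines. ELK3 fell in both (-0.37 in A375 and -0.28 in 1205Lu). EGR2 rose in 1205Lu (1.06) and was not tested in A375, where it averaged 2.83 counts.

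Among 23 other zipper proteins that can pair with AP-1 members, 22 were found and 21 tested. In A375, 10 rose and 7 fell (25.7% and 25.1% of all genes; median 0.16), and in 1205Lu 13 rose and 2 fell (20.6% and 19.9% of all genes; median 0.27). The interaction called 11 higher and 2 lower in 1205Lu, where 16.6% and 15.3% of all genes were called. CEBPD (-0.90) and the small MAF protein MAFF (-0.76) fell most in A375, where BATF2 (0.62) and NFE2L1 (0.32) rose. In 1205Lu the stress factor DDIT3 (0.97) and CEBPB (0.83) rose most, while CREB3 (-0.25) and NFE2L1 (-0.19) fell. Adjusted p-values of these 8 changes lay at 0.0036 or below.

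By Pearson correlation of log2 CPM over the 12 RNA-seq samples, the genes most like FOSL1 among 11853 with a mean of at least 100 counts were SLC35F6 (0.995), HNRNPA2B1 (0.994), EIF4EBP2, GOLGA3 and SART1 (0.991 each). The points share 4 groups of libraries, and the correlation follows the silencing and the control level together. SLC35F6 averaged 83.2 and 29.4 CPM in A375 and 84.0 and 40.8 CPM in 1205Lu, and HNRNPA2B1 changed far less, from 1640 to 1259 and from 1660 to 1406 CPM. Of the members, BATF3 (0.831) followed FOSL1 most closely, JUN gave 0.541, FOS 0.087 and FOSL2 0.058, and ATF3 ran against it (-0.738).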

How the data were processed

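RNA-seq covered 12 samples and Cut&Run 8. Per the submitters' processing notes and the study's methods, the authors trimmed RNA-seq reads with cutadapt 1.8.1, aligned them to GRCh38 with STAR 2.7.7a and estimated expected counts per gene with RSEM 1.3.0. These expected counts were deposited rounded to whole numbers and not normalized. Cut&Run reads were aligned with Bowtie2 2.4.1 and peaks called with MACS2, and the authors deposited raw counts per consensus peak. Whether peaks were called per sample is not given in the sources used here.

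Genes and peaks were tested with edgeR 4.0.16 (filterByExpr, TMM, glmQLFit, glmQLFTest) and Benjamini-Hochberg adjustment over the whole table. Log2 fold changes are si-FOSL1 over si-NT. Levels are CPM on TMM library sizes, or CPM per kb of merged exons of GENCODE version 44. Its GRCh38 gene models also placed the peaks, whose positions are those of the peak names. Members, gene lists and the rule for named genes (all members, the 2 largest called changes each way per list and line with a mean of at least 100 counts, and the 5 genes most correlated with FOSL1) were chosen with earlier results of these data known. A gene that this rule also names is not reported here. The library totals above set the precision, and intervals of shares cover counting error only. The code was tested on simulated data with known changes. DESeq2 1.42.0, other normalizations and filters, a replicate block and leaving out samples were tried as alternatives. FRA1 replicates 2 and 3 of 1205Lu differed little beyond counting noise (chi-square per degree of freedom 1.07, other 1205Lu pairs 1.83 and 2.17; A375 pairs 1.09 to 1.25), and were kept as 2 samples, with their sum as an alternative.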

Additional observations from a re-analysis of the deposited data

Results flagged for a closer look

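For 5 members the response to silencing differed between the cell lines by the interaction test of edgeR over all 12 samples, with higher values in 1205Lu than in A375. FOSL1 differed by 1.19 on the log2 scale (adjusted p = 1.2e-16), having fallen in 6 of 6 silenced samples to 6.19% of the control in A375 and 14.0% in 1205Lu. ATF3 differed by 0.94 (adjusted p = 7.8e-05), with changes of 0.28 in A375 and 1.21 in 1205Lu. FOSB differed by 0.64 (adjusted p = 0.0071), with 0.14 and 0.76. FOSL2 differed by 0.54 (adjusted p = 4.6e-08), with -0.56 and -0.03. JUND differed by 0.45 (adjusted p = 1.1e-05), with 0.29 and 0.73. The remaining FOSL1 level also differed between the lines, and its part in the other 4 differences was not tested.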

How the results depend on the processing

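Of 600 alternative log2 fold changes of the 40 member results, 561 kept their direction and their side of the threshold, 22 lost the call and 2 gained it. The other 15 turned in sign, none of them called: FOS in A375 and FOSL2 in 1205Lu, each without si-NT replicate 3, and JDP2 in 13 settings. With single samples left out, FOS in A375 lay between -0.038 and 0.31, FOSL2 in 1205Lu between -0.048 and 0.032, and JDP2 between -0.042 and 0.094 in A375, between -0.11 and 0.19 in 1205Lu and between -0.12 and 0.18 in the interaction. JDP2 gave -0.010 in 1205Lu with 10 counts asked of every sample and -0.00010 with the replicate block, and 0.0053 in the interaction with no low-count filter. Asking for an absolute log2 over 1 left 2 members called in A375, 3 in 1205Lu, 1 in the interaction and 5 between control cells, by construction. Leaving out single samples gave 6 to 7, 7 to 7, 5 to 6 and 9 to 9. Among all genes, 7831 to 8058, 6234 to 6446, 5737 to 5896 and 14319 to 14468 were then called. The genes tested numbered 17326 to 17462 in A375, 17722 to 18088 in 1205Lu, and 20020 to 20421 in the other comparisons. DESeq2 called 6 members in A375, beside 7841 of all 16899 genes tested. Calls lost other than by the log2 limit were those of ATF3 in A375. The MANE Select lengths were tried after the data were seen.

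Peaks near members past the IgG limit in A375 numbered 28 at 2 times IgG (81.0% of all peaks) and 12 at 8 times (26.7%). They numbered 0 with libraries scaled alike (1.21%), where IgG was brought to the same total in peaks as FRA1. Within 3 kb of a start 11 of 16 passed and within 50 kb 45 of 79, beside 57.4% of all peaks. With samples left out 22 to 26 passed (57.7 to 69.5%). In 1205Lu they numbered 8 at 2 times IgG (15.6%), 0 at 8 times (2.06%) and 1 when scaled (3.67%). Within 3 kb 2 of 16 passed there and within 50 kb 6 of 79, beside 7.09% of all peaks. With samples left out 3 to 5 passed (7.15 to 12.9%). Peaks called between the lines numbered 6 of 14 tested within 3 kb and 35 of 70 within 50 kb, where 62.6% of all peaks were called. With no scaling they numbered 28 of 28, against 42853 of all 45588. With samples left out they ran from 11 of 26 without A375 replicate 3 (23379 of all 30013) to 16 of 30 without 1205Lu replicate 1 (29071 of all 52767). With 1205Lu replicates 2 and 3 summed they numbered 13 of 30, against 28405 of all 53300. The cause of these changes was not tested beyond what each setting alters.

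With the replicate number as a block, 7, 7, 5 and 9 members were called. Among all genes tested, 8614 of 16899, 6746 of 17136, 6029 of 19452 and 14715 of 19452 were. Of 28 near peaks tested, 11 were called, against 26744 of all 45588, and the ATF3 peak over its downstream start lost its call (adjusted p = 0.112). No other call of a member changed under the block. Deviations of same-numbered samples correlated at 0.017 to 0.047 in A375, where 6 of 6 samples correlated best with their own number. They correlated at -0.0083 to -0.0054 in 1205Lu, where 0 of 6 did so, and at -0.053 to 0.0035 in Cut&Run. The labels give only the number, and whether same-numbered samples shared a culture or batch was not tested. Limits remain in depth: FOS and BATF3 had under 100 counts in each A375 sample, and 1205Lu peaks held few counts above IgG.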

Other observations

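Genes that act on AP-1 proteins or are known AP-1 targets moved in both directions. Of 17 kinases acting on AP-1, 4 rose and 5 fell in A375, and 4 rose and 7 fell in 1205Lu, with medians of -0.050 and 0.015 on the log2 scale. Of all genes, 25.7% rose and 25.1% fell in A375, and 20.6% rose and 19.9% fell in 1205Lu. The 9 of 17 called in A375 thus lie near the 50.8% of all genes called there. In 1205Lu the 4 of 17 that rose lie near the share of all genes, and the 7 of 17 that fell lie above it. This gap was not tested. In A375 MAPK14 (0.20) and MAP2K4 (0.13) rose and MAP2K5 (-0.36) and MAP2K1 (-0.29) fell. In 1205Lu BRAF (0.59) and MAP2K7 (0.26) rose and RPS6KA1 (-0.46) and MAPK3 (-0.31) fell.

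Of 20 textbook AP-1 targets, 19 were found. In A375, 8 of 18 tested rose and 6 fell, and in 1205Lu 6 of 14 rose and 5 fell, where 50.8% and 40.5% of all genes were called in either direction. SPP1, which encodes osteopontin, rose by 1.92 in A375, from 8.63 to 32.8 CPM. ITGB4, an integrin chain of hemidesmosomes, fell by 1.09 in A375, and HMGA1, a chromatin protein, fell by 0.48 in A375 and 0.56 in 1205Lu. In 1205Lu HBEGF (0.62) rose and VIM (-0.21) fell.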
